A study of Mus musculus with 2 samples.

Results

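Of 10 miRNAs that mark blood cells, liver or muscle, 1 was detected in LLC-derived exosomes, the muscle miRNA mmu-miR-206-3p. Among all miRNAs of the array, 11.5% were detected on both arrays, a share near that of the 10. The 10 were taken by name from the 1881 mouse miRNAs of the array, by a rule that uses no values, though earlier results of these arrays were known when the list was drawn up, to look for RNA of serum, blood or tissue in the exosome preparation. They were mmu-miR-451a, mmu-miR-486a-5p and mmu-miR-144-3p of red blood cells, mmu-miR-223-3p, mmu-miR-142a-3p and mmu-miR-150-5p of white blood cells, mmu-miR-122-5p of liver, and mmu-miR-1a-3p, mmu-miR-133a-3p and mmu-miR-206-3p of muscle.

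LLC is a mouse Lewis lung carcinoma cell line, kept here without any treatment. Exosomes, small vesicles that cells release, were spun down from its culture supernatant in 2 independent experiments, and the RNA of each was hybridized to 1 single-colour Agilent mouse miRNA array. The study's methods describe culture in serum from which exosomes had been removed. For exosomal miRNA they name the MiRNeasy Mini Kit, in a section on RNA extraction and real-time PCR. The sample labels instead describe a kit for blood RNA that lyses red and white cells and a step against globin messages. Which text describes these preparations was not settled. Both arrays belong to 1 group, and no array of plain medium, serum, blood, liver or muscle was analysed here, so no difference between groups was tested. Few vesicles with a miRNA and little of it in each vesicle cannot be told apart on these arrays, nor can RNA in vesicles and RNA spun down with them.

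A miRNA is a short RNA that guides a silencing complex to messenger RNAs, mainly through its seed, the bases 2 to 8 from the 5′ end. Some are made almost entirely by 1 cell type. Red cell precursors make miR-451a and miR-144-3p from a shared precursor transcript, and miR-451a and miR-486 are abundant in mature red cells and rise in serum when these cells lyse. Myeloid cells make miR-223-3p, blood cells in general make miR-142a-3p, and mature lymphocytes make miR-150-5p. Hepatocytes are rich in miR-122-5p. Muscle makes miR-1, miR-133 and miR-206, of which miR-206 is largely restricted to skeletal muscle. All are well conserved among mammals, so an array probe for the mouse miRNA cannot be relied on to leave out RNA of bovine serum.

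The mature sequences that RefSeq gives on the build GRCm38.p6 were matched by name for 5 of the 10 miRNAs. They are shown with the seed in capitals, since the 5 seeds differ from each other:
mmu-miR-206-3p: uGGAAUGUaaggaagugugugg
mmu-miR-223-3p: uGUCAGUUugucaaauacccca
mmu-miR-142a-3p: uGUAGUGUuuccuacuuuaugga
mmu-miR-451a: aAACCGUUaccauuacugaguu
mmu-miR-144-3p: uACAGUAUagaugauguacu

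The sequence of mmu-miR-206-3p lies on the plus strand at chr1:20679055-20679076, within the span of the long non-coding RNA gene *Lincmd1*. Its hairpin starts 3759 bases from that of *Mir133b*. The hairpins of *Mir144* and *Mir451a* start 165 bases apart on chromosome 11, with the mature sequences on the plus strand at chr11:78073047-78073066 and chr11:78073186-78073207. The sequence of mmu-miR-142a-3p is at chr11:87756903-87756925 and that of mmu-miR-223-3p at chrX:96242884-96242905, both on the plus strand, the latter within the span of the gene *F630028O10Rik*. The members mmu-miR-486a-5p, mmu-miR-150-5p, mmu-miR-122-5p, mmu-miR-1a-3p and mmu-miR-133a-3p are given by name.

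Each marker miRNA had 30 spots per array, 15 for each of 2 probes. The signal of a spot is its fluorescence intensity after background subtraction, so it can fall below 0, and the value of a miRNA is the mean over its spots without those marked as outliers. Repeated spots of 1 array are technical, and the SD over them says nothing about the spread between experiments. The same measure in the negative control spots, which carry sequences that match no miRNA, had a mean of 0.570 ± 2.48 (SD, 986 spots) in replicate 1 and 0.760 ± 2.72 (SD, 995 spots) in replicate 2. Their 95th percentile was 4.73 and 5.23. No spot was saturated. The software called a miRNA detected when a probe had a total signal above 3 times its error. It called 253 of all 1881 miRNAs detected in replicate 1 (13.5%), 223 in replicate 2 (11.9%) and 216 in both (11.5%).

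The detected share of the 10 marker miRNAs, 1 of 10 on each array and on both, was thus near that of the array as a whole. The median of their signals was 1.68 in replicate 1 and 1.62 in replicate 2, against 0.462 and 0.225 for all miRNAs of the array, and all 4 medians lay below the 95th percentile of the negative controls. The mean signal passed that percentile on both arrays for 2 of the 10, mmu-miR-206-3p and mmu-miR-223-3p, against 15.0% of all miRNAs. Another reading of the negative controls takes the mean of each of their 7 sequences, of which the highest was 1.25 in replicate 1 and 1.90 in replicate 2. The miRNAs mmu-miR-486a-5p and mmu-miR-133a-3p lay above that value on both arrays as well, which made 4 of 10, against 27.6% of all miRNAs.

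**Figure D1:**
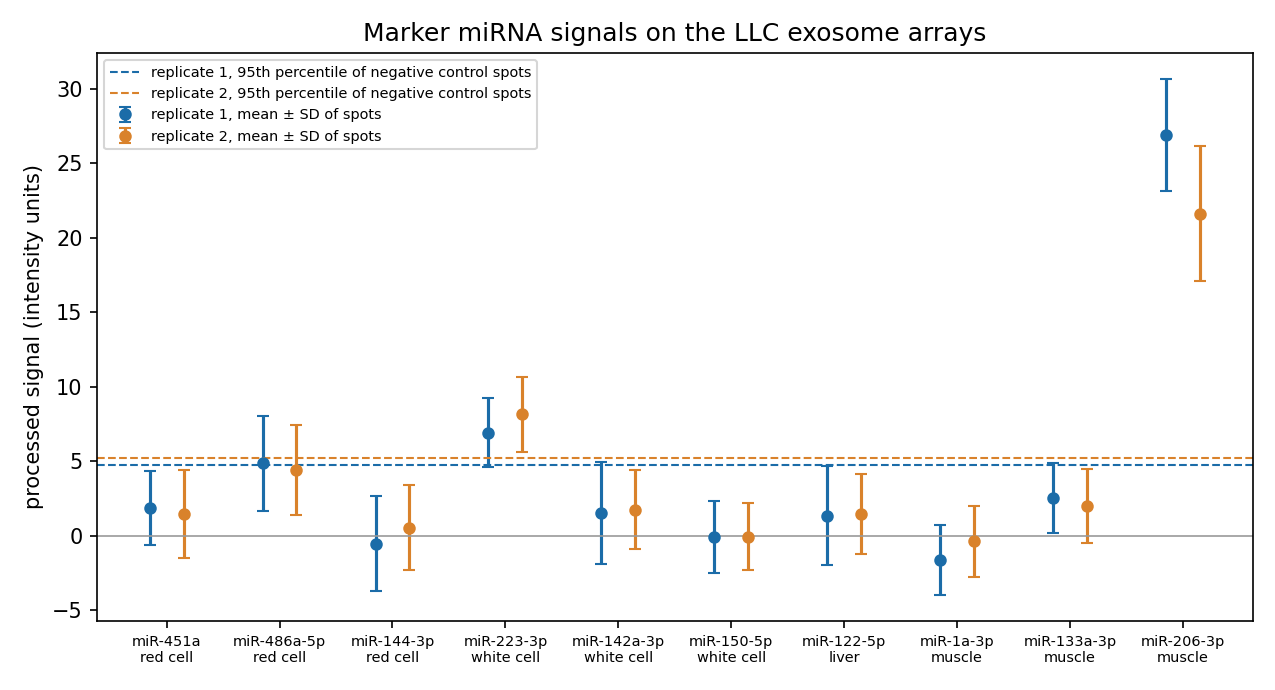
Mean processed signal of each marker miRNA (vertical axis, intensity units) on the array of replicate 1 and of replicate 2, with bars for the SD over its spots and dashed lines for the 95th percentile of the negative control spots of each array. mmu-miR-206-3p stands at 26.9 and 21.6 and mmu-miR-223-3p at 6.92 and 8.15. mmu-miR-486a-5p, at 4.87 and 4.42, lies above its line in replicate 1 and below it in replicate 2. The others lie below the lines, at or near the negative controls.

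mmu-miR-206-3p, the skeletal muscle miRNA, was bright in both experiments. Its mean signal was 26.9 ± 3.77 (SD, 26 spots) in replicate 1 and 21.6 ± 4.51 (SD, 28 spots) in replicate 2. The dimmest of its spots had 16.3 in the first array and 14.7 in the second, so every spot not marked as an outlier lay above the brightest negative control spot, which had 9.45 and 9.35. The software marked 30 of 30 spots as well above background in replicate 1 and 28 of 30 in replicate 2, a mark that 50% or more of a probe's spots carried on both arrays for 7.07% of all miRNAs. By signal it was at rank 71 of the 1881 miRNAs in replicate 1 and 78 in replicate 2, which is an order of signal and not of amount, because binding to the probe differs from miRNA to miRNA.

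Both probes of mmu-miR-206-3p carried the signal. The first had a mean of 24.7 ± 3.69 (SD, 14 spots) in replicate 1 and 18.6 ± 2.59 (SD, 13 spots) in replicate 2, and the second had 29.4 ± 1.87 (SD, 12 spots) and 24.3 ± 4.15 (SD, 15 spots). Their total signals were between 5.19 and 7.00 times their errors. The second probe was the brighter on both arrays. The linear signal of the miRNA was 1.24 times as high in replicate 1 as in replicate 2, and the factor used to scale the arrays, the 75th percentile over the 393 probes detected on both, differed by 1.26 times. On the scaled log2 level, on which 0 is that percentile, mmu-miR-206-3p therefore had nearly the same value in both experiments, -0.90 and -0.93, with a mean of -0.92 ± 0.02 (SD, n = 2 arrays). Of the 216 miRNAs detected on both arrays, 3 differed by less between the experiments, and the median difference without regard to sign was 0.35. With the sign kept, replicate 2 minus replicate 1, the median over the 216 was 0.21 and the value of mmu-miR-206-3p was -0.02. The scaling thus left a general shift between the arrays, which mmu-miR-206-3p did not follow. Its rank by level among the 216 was 70.

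The other muscle miRNAs did not follow it. mmu-miR-1a-3p, of the same family as miR-206, had a mean signal of -1.62 ± 2.35 (SD, 30 spots) in replicate 1 and -0.380 ± 2.38 (SD, 30 spots) in replicate 2, below the mean of the negative controls on both arrays. mmu-miR-133a-3p, which is made from the same transcripts as miR-1a-3p, had 2.55 ± 2.36 (SD, 30 spots) and 1.99 ± 2.48 (SD, 30 spots). Its 2 probes had total signals of at most 1.13 times their errors, and 14 and 12 of its 30 spots were positive and significant against the background, the software's mildest call for a spot. The neighbour of miR-206 in the genome, mmu-miR-133b-3p, had 2.51 and 2.86 and was detected on neither array. Neither of the 2 other array miRNAs with the seed of mmu-miR-206-3p in their RefSeq sequence, mmu-miR-6349 and mmu-miR-6382, was detected on both arrays. That seed search covered only miRNAs matched by name to a RefSeq sequence, so mmu-miR-1a-3p was not part of it.

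The 3′ part of mmu-miR-206-3p holds a repeat of G and U that few miRNAs of the array share. The letters GUGUGUG were searched for in the 1608 array miRNAs with a RefSeq mature sequence, read 5′ to 3′ on the RNA strand, and 10 of them held the repeat (0.622%). Of these 10, 9 were detected on both arrays, among them mmu-miR-206-3p, which had the eighth highest signal of the 10. The letters GUGUG without the longer repeat were held by 40 miRNAs, of which 7 were detected on both arrays (17.5%), and 166 of the 1558 miRNAs with neither were detected (10.7%). Of the 5 marker miRNAs with a sequence, only mmu-miR-206-3p held either repeat. This search was chosen after the values were seen. All 10 sequences are shown in order of signal, with the first copy of the repeat in capitals, because the place of the repeat differs among them:
mmu-miR-574-5p: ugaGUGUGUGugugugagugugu
mmu-miR-3082-5p: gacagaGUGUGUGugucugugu
mmu-miR-1187: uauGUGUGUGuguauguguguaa
mmu-miR-669n: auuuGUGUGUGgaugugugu
mmu-miR-32-3p: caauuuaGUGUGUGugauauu
mmu-miR-672-5p: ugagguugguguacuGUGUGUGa
mmu-miR-6348: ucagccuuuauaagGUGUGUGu
mmu-miR-206-3p: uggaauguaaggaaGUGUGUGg
mmu-miR-3097-5p: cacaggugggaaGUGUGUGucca
mmu-miR-466k: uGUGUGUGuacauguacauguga

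The mean signals of these miRNAs spanned a wide range, from 1068 and 1157 for mmu-miR-574-5p to 23.2 and 18.6 for mmu-miR-3097-5p, the dimmest of the 9 that were detected. mmu-miR-466k, with -0.939 and -1.50, was detected on neither array. Its repeat is at bases 2 to 8 with 15 bases after it. In the 9 detected miRNAs the last copy of the repeat has between 1 and 11 bases after it. In mmu-miR-206-3p that copy spans bases 15 to 21 of 22. Counted from the first copy, shown in capitals, more bases follow in some of the 9 detected miRNAs. Only mmu-miR-466k held the repeat without being detected, and an effect of the place of the repeat was not tested. The deposited scanner files pair each probe with 1 miRNA name and hold no probe sequence, and the part of the repeat in the signal of mmu-miR-206-3p was not tested.

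**Figure D2:**
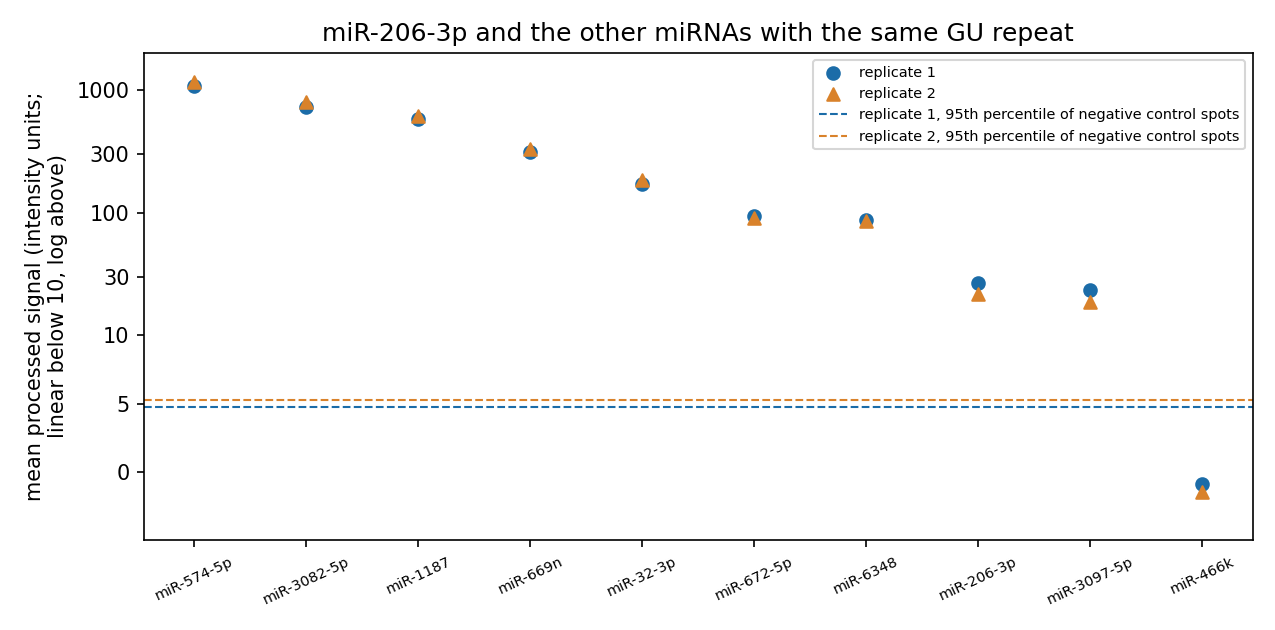
Mean processed signal (vertical axis, intensity units, linear below 10 and logarithmic above) of the 10 array miRNAs that hold the letters GUGUGUG, for the array of each replicate, with dashed lines at the 95th percentile of the negative control spots. All but mmu-miR-466k lie above the lines, and mmu-miR-206-3p is among the dimmest of these 9.

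Among the white cell miRNAs, mmu-miR-223-3p of myeloid cells lay between the background and the detection call. Its mean signal was 6.92 ± 2.34 (SD, 28 spots) in replicate 1 and 8.15 ± 2.50 (SD, 30 spots) in replicate 2, with a mean over the arrays of 7.54 ± 0.869 (SD, n = 2 arrays). That was above the 99th percentile of the negative control spots, which was 5.91 and 7.01, and below the brightest of them. On both arrays 30 of 30 spots were positive and significant against the background, as for mmu-miR-206-3p, which made 2 of the 10 marker miRNAs, against 8.61% of all miRNAs. In the negative controls 17.5% of the spots in replicate 1 and 20.8% in replicate 2 had the same mark. The 4 total signals of its probes nevertheless came to between 2.10 and 2.60 times their errors, short of the 3 times that the software asks for. In all, 2 miRNAs of the array had every spot positive on both arrays and were detected on neither.

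The remaining white cell miRNAs were near the negative controls. mmu-miR-142a-3p, found across blood cells, had mean signals of 1.51 ± 3.43 (SD, 30 spots) and 1.76 ± 2.66 (SD, 30 spots), with 9 of 30 spots positive and significant on each array. mmu-miR-150-5p of lymphocytes had -0.0924 ± 2.42 and -0.0772 ± 2.25 (SD, 30 spots each), with 3 and 2 positive spots. Both values of mmu-miR-150-5p lay below the mean of the negative controls, and no probe of either miRNA had a total signal above its error.

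None of the red cell miRNAs was detected. mmu-miR-451a, the most abundant miRNA of mature red cells, had mean signals of 1.85 ± 2.49 (SD, 30 spots) in replicate 1 and 1.49 ± 2.95 (SD, 30 spots) in replicate 2, and 10 and 9 of its 30 spots were positive and significant. mmu-miR-144-3p, from the same transcript, had -0.541 ± 3.18 and 0.545 ± 2.83 (SD, 30 spots each), below the mean of the negative controls on both arrays. Along with mmu-miR-150-5p and mmu-miR-1a-3p it was 1 of 3 marker miRNAs of which this was true. mmu-miR-486a-5p stood higher, with 4.87 ± 3.19 (SD, 30 spots) and 4.42 ± 3.03 (SD, 26 spots), above the 95th percentile of the negative controls in replicate 1 and below it in replicate 2. Of its 30 spots, 20 were positive and significant on each array, and its brighter probe reached 1.96 and 1.85 times its error. Under a milder call, by which 50% or more of the spots of 1 probe must be positive and significant on both arrays, mmu-miR-486a-5p passed together with mmu-miR-223-3p and mmu-miR-206-3p, 3 of 10 against 25.2% of all miRNAs.

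The liver miRNA mmu-miR-122-5p had mean signals of 1.34 ± 3.33 and 1.44 ± 2.68 (SD, 30 spots each). Its probes had total signals of at most 0.629 times their errors, and 10 and 7 of its 30 spots were positive and significant. Both means were within 1 SD of the mean of the negative control spots, but that SD is over single spots and not over means of 30 spots. Against the highest mean of a negative control sequence, the mean was above it in replicate 1 (1.25) and below it in replicate 2 (1.90). Its opposite arm mmu-miR-122-3p had 0.434 and -0.513, below the mean of the negative controls on both arrays.

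**Figure D3:**
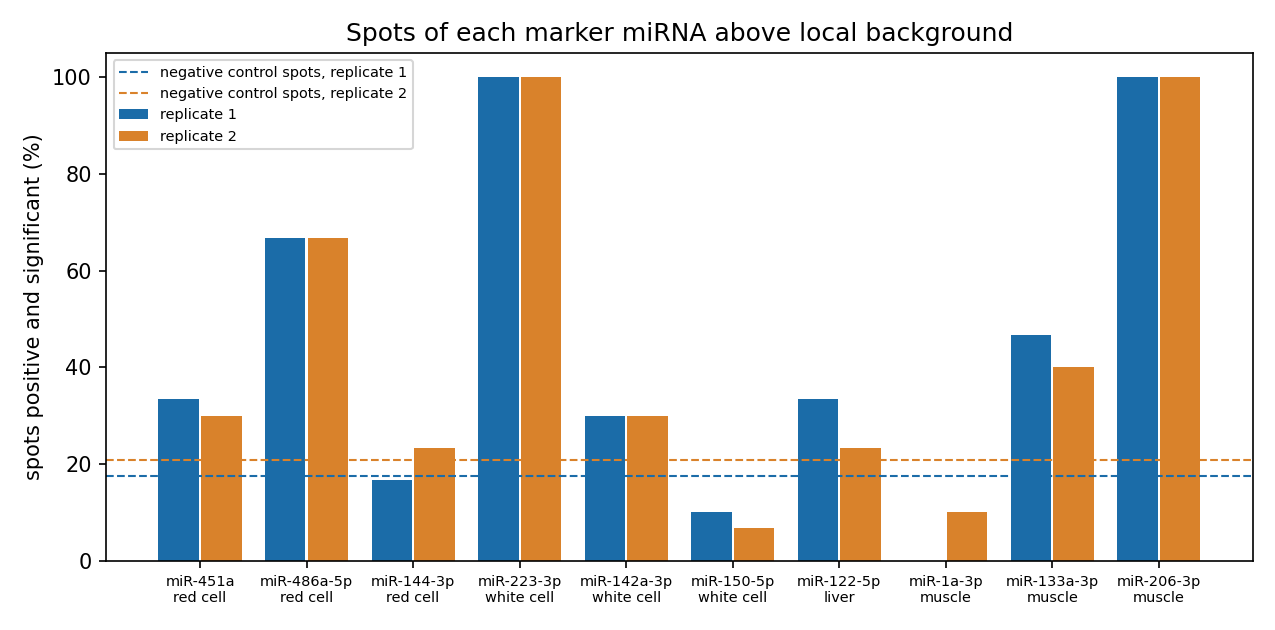
Share of the 30 spots of each marker miRNA that were positive and significant against the background (vertical axis, percent) for each replicate, with dashed lines for the share among negative control spots. mmu-miR-206-3p and mmu-miR-223-3p reach all spots on both arrays, mmu-miR-486a-5p has 20 of 30, and the others have 14 or fewer.

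The opposite arms of the precursors were measured for 9 of the 10 marker miRNAs, all but mmu-miR-451a, with 2 arms for mmu-miR-1a-3p. Of these 10 arms, mmu-miR-150-3p was detected in replicate 1, with a mean signal of 7.93 ± 3.75 (SD, 28 spots), and not in replicate 2, with 5.92 ± 3.39 (SD, 26 spots). Of all miRNAs, 13.5% were detected in replicate 1 and 11.9% in replicate 2. In replicate 1 only 1 probe of mmu-miR-150-3p passed, at 3.66 times its error, and its others had 1.66 to 2.67 times. Its guide strand mmu-miR-150-5p was among the dimmest of the marker miRNAs. The other 9 arms were detected on neither array, and mmu-miR-206-5p, from the precursor of the detected miRNA, had 1.53 and 2.13. The arm mmu-miR-223-5p had -1.46 and -1.35, below the negative control means, whereas mmu-miR-223-3p lay above them.

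Of 18 further miRNAs listed for the same tissues, 1 was detected on both arrays, against 11.5% of all miRNAs. This one, mmu-miR-92a-3p, which is abundant in red cells but made by most cell types, had mean signals of 30.4 ± 25.8 (SD, 28 spots) and 31.8 ± 25.8 (SD, 29 spots). Its detection rested on 1 probe, with means of 55.6 and 56.0, while its other probe had 5.25 and 5.89 and was not detected. The SD over its spots therefore reflects mainly the gap between the probes. The other 17 listed miRNAs were detected on neither array. mmu-miR-92a-3p was 1 of 5 further red cell or platelet miRNAs, while 0 of 4 of white cells, 0 of 3 of liver and 0 of 6 of muscle were called by the software on either array. mmu-miR-16-5p, which red cells and most other cells contain, had 2.82 and 2.38. Of 14 miRNAs that most cells express, 9 were detected on both arrays and 5 on neither, with signals up to 96.4 and 60.6 for mmu-let-7b-5p. Apart from mmu-miR-21a-5p and mmu-miR-23a-3p, the 9 were all members of the let-7 family, so the count rests mostly on 1 family. For mmu-miR-23a-3p, mmu-let-7d-5p, mmu-let-7e-5p and mmu-let-7f-5p, detection rested on 1 probe.

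**Figure D4:**
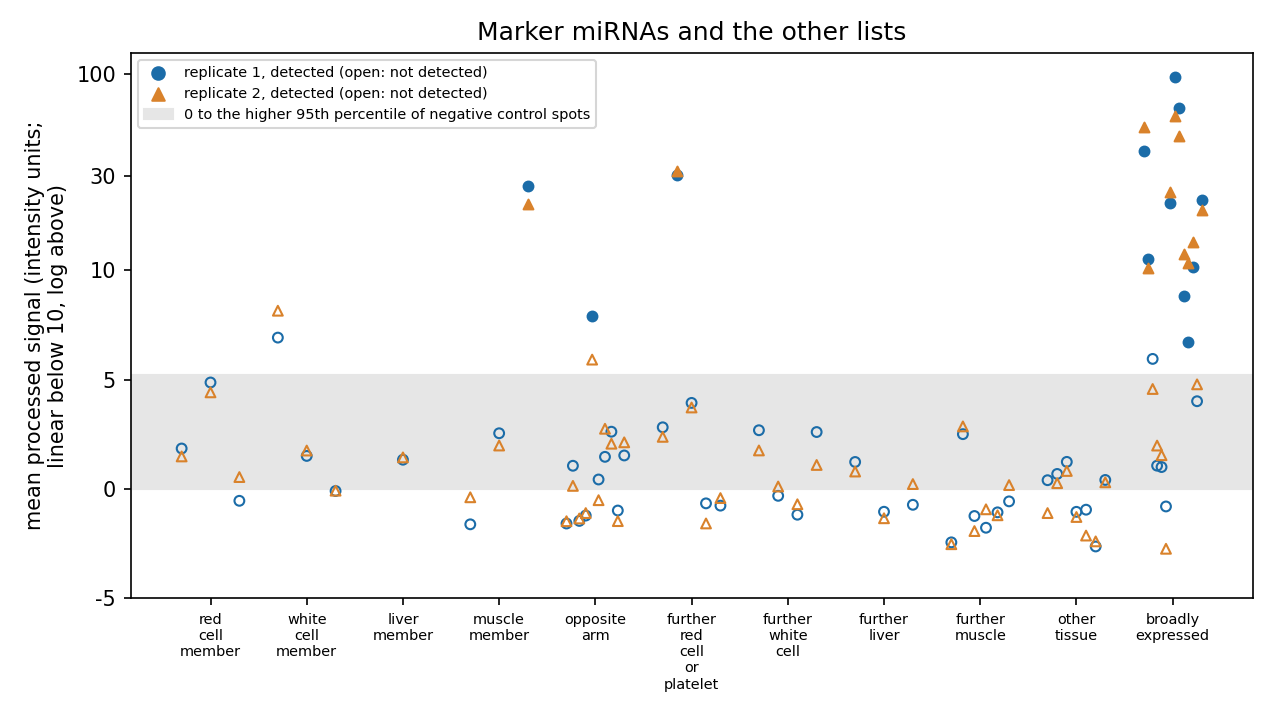
Mean processed signal (vertical axis, intensity units, linear below 10 and logarithmic above) of the marker miRNAs by tissue, of their opposite arms and of the other lists, 1 circle for replicate 1 and 1 triangle for replicate 2 of each miRNA, filled where it was detected, with grey shading from 0 to the higher 95th percentile of the negative control spots. Filled points appear in the muscle markers for mmu-miR-206-3p alone, in the opposite arms for mmu-miR-150-3p in replicate 1, in the further red cell list for mmu-miR-92a-3p, and in the broadly expressed list for 9 of 14.

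The deposited log2 table of the 2 arrays gave mmu-miR-206-3p 3.63 in replicate 1 and 3.50 in replicate 2, the highest of the 10. Its scale is not stated, and its lowest value, -3.32, was held by 8 of the 10, mmu-miR-223-3p and mmu-miR-486a-5p among them. The remaining miRNA, mmu-miR-142a-3p, had -2.19 and -2.16. Both columns were above that value for 2 of the 10 and for 15.2% of all miRNAs of the array.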

How the data were processed

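The authors deposited the Agilent Feature Extraction output of each array, with background-subtracted fluorescence intensity per spot and no normalization between arrays, and a log2 table per miRNA whose making is not stated. Both log2 columns hold the same sorted values. The file headers give version 10.7.1.1, the submitters' processing notes 9.1. Both arrays lay on 1 slide.

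Control and outlier spots were left out (6 marker spots per array). Signals were averaged in intensity units. For levels, spot signals were divided by the array's 75th percentile over probes detected on both arrays, signals of 0 or less took the smallest positive one of the array, log2 was taken with no pseudocount, and spots, then probes, were averaged. Marker levels other than that of miR-206-3p depend on that floor and are not listed. Normexp used an offset of 50. With 1 group of 2 arrays no p-value was computed, and their number limits the precision. The functions were tested on simulated arrays.

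The members and lists were chosen with earlier results of these data known. Named were the 10 members, some of their opposite arms and some list miRNAs detected on at least 1 array. The latter were miR-92a-3p, miR-21a-5p, miR-23a-3p and members of the let-7 family. The 7 miRNAs of brain, pancreas and eye lens were named as a whole list, though none was detected. The miRNAs miR-16-5p, miR-133b-3p, miR-6349, miR-6382 and those with the GU repeat were named after their values were seen. One listed name, miR-486b-5p, was not among the array names. Python 3.11.15, numpy 2.4.6, pandas 2.3.3, R 4.3.3 and limma 3.58.1 were used.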

Additional observations from a re-analysis of the deposited data

Results flagged for a closer look

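mmu-miR-142a-3p was above the lowest value of the deposited log2 table in both columns, with -2.19 in replicate 1 and -2.16 in replicate 2, while the rows of the negative controls and blanks were at -3.32. The scanner files did not call it detected on either array, and 9 of its 30 spots were positive and significant on each. Of the 285 array miRNAs above the lowest value in both columns, 45 were likewise detected on neither array.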

How the results depend on the processing

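The number of marker miRNAs detected on both arrays was 1 with each replicate left out and under the other detection calls, except for 3 when 50% or more of the spots of 1 probe had to be positive and significant and 2 in the deposited log2 table. With the same calls, the number among the further blood, liver and muscle miRNAs was 2 and 3, against 1. The number of markers above the negative controls, 2, was 1 against the brightest negative control spot and ranged from 2 to 3 with each replicate left out, 3 without replicate 2. It was also 3 with the brightest probe of each miRNA. In both cases mmu-miR-486a-5p was added. The median level over both arrays was -8.98 for the markers and -11.5 for all miRNAs of the array. That of the markers was -4.77 with the 75th percentile over all probes, -3.50 with no scaling, -0.81 with normexp, -7.81 with the brightest probe, -5.08 with the median of spots and -3.32 in the deposited table, and from -9.20 to -8.52 with each replicate left out. The first 3 and the deposited table are on another scale by construction, and the cause of the other moves was not tested. Of 70 levels of single markers under 7 alternatives that used both arrays, 52 moved by more than the SD between replicates. That count includes every level with scaling over all probes, with no scaling, with normexp and in the deposited table. Those levels moved because the scale differs by construction, so the count does not measure how stable the levels are. The marker with the highest level was mmu-miR-206-3p under these 7 and with either array left out. No paired analysis was possible because both arrays form 1 group. Signal over background limits the dim markers, which have only an upper bound.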

Other observations

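Marker miRNAs of tissues outside the studied set were looked at as well. Of 7 from brain, pancreas and eye lens (miR-124-3p, miR-9-5p, miR-219a-5p, miR-375-3p, miR-216a-5p, miR-217-5p and miR-184-3p), 0 were called detected by Feature Extraction on either array, against 11.5% of all miRNAs on both, and their mean signals lay between -2.63 and 1.24 on the first array and between -2.40 and 0.824 on the second.

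The base composition of mmu-miR-206-3p sets it apart from the other 4 marker miRNAs with a RefSeq sequence. It has 10 G among 22 bases (45.5%) and 0 C, while G makes up 13.6% of mmu-miR-451a and mmu-miR-223-3p, 20.0% of mmu-miR-144-3p and 21.7% of mmu-miR-142a-3p. Across the 1608 array miRNAs with a sequence, the median share of G was 35.4% among those detected on both arrays and 26.1% among the rest. Of the 201 miRNAs with at least the share of G of mmu-miR-206-3p, 61 were detected on both arrays (30.3%), against 8.60% of those with less. The share of G and the mean signal over all 1608 nevertheless had a Spearman's rho of -0.0983, which runs the other way and is weak. These shares are across miRNAs of the same arrays and were looked at after the values were seen.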
